A study of Mus musculus with 12 samples.

Results

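Rab GTPases were read on Affymetrix arrays of splenic dendritic cells (DCs) from mice with and without the microRNA miR-142. All gene symbols made of Rab, digits and an optional letter were taken, which gave 55 of the 17097 genes measured, and genes that only bind or regulate Rab proteins were kept apart. The study used 12 arrays in 4 groups of 3. These were wild-type (WT) unstimulated, WT given lipopolysaccharide (LPS), miR-142 knockout (KO) unstimulated and KO given LPS. All mice were C57BL/6 males aged 10 weeks, the WT mice were littermates of the KO mice, and each array held DCs taken from a single spleen by positive selection. No other allele or agent is named for any group. The labels name neither the surface marker used for the selection nor the LPS dose or time, and they do not say in which cells the KO mice lack the gene. Titles and cell type fields say dendritic cells while the sample descriptions say T cells. The samples were taken here as DCs, and markers of both cell types are given below.

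Rab proteins are small GTPases that mark the membranes of the cell. Each one switches between a GTP-bound form that sits on a membrane and recruits effectors such as tethers and motor adaptors, and a GDP-bound form that a GDP dissociation inhibitor (GDI) can pull into the cytosol. Exchange factors turn a Rab on, GTPase-activating proteins turn it off, and a Rab escort protein presents new Rabs for prenylation. In DCs these proteins steer endocytosis, phagosome maturation, the traffic of MHC molecules and Toll-like receptors, and the secretion of cytokines and granules.

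The sequences below were taken from RefSeq with coordinates on GRCm38.p6. The mature products of the microRNA that the KO genotype names are shown, with the seed (bases 2 to 8) in capitals.
mmu-miR-142a-3p: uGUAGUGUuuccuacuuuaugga
mmu-miR-142a-5p: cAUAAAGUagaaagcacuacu
They lie on the plus strand at chr11:87756903-87756925 and chr11:87756867-87756887, and their seeds differ. No probe set names Mir142 by itself, so whether its level matches the genotype labels was not analysed here. Promoters, as the 250 bases before the gene's start, were in the table for 44 of the 55 Rab genes. Those of Rab9, Rab8b and Rab21 are shown because these genes carried the lower level in KO or the higher levels after LPS described below, with motif matches in capitals.
Rab9: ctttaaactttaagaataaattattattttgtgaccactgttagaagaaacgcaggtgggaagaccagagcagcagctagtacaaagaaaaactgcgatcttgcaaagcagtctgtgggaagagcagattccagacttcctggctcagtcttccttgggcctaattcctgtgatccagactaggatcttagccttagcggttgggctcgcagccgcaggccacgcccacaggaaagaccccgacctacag
Rab8b: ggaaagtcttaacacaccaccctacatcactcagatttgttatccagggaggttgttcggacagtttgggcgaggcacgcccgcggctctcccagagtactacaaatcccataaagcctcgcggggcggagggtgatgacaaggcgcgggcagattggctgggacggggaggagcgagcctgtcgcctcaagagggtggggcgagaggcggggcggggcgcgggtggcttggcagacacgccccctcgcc
Rab21: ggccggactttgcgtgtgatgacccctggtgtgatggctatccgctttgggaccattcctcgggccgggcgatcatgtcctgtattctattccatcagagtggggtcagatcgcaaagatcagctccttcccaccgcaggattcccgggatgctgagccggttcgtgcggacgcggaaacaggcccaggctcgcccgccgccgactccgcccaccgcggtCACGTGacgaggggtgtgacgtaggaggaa
All 3 lie on the minus strand, at chrX:166479868-166480117, chr9:66919706-66919955 and chr10:115315592-115315841. Both strands of each promoter were searched for an NF-kB motif, for the core of the interferon-stimulated response element (ISRE), for TGANTCA (AP-1) and for CACGTG (the E-box of clock and MYC family proteins). The NF-kB motif was in 3 of the 44 Rab promoters (Rab11a, Rab15 and Rab28) and in 7.25% of all 32851 promoters of this length. The ISRE core was in 1, that of Rab19, against 2.98%, and TGANTCA was in 2, those of Rab15 and Rab34, against 6.75%. CACGTG was in 5, those of Rab5a, Rab20, Rab21, Rab23 and Rab27a, against 6.02%. Rab21 thus held 1 of the motifs searched, and the windows of Rab9 and Rab8b held none of these letters.

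The deposited values are log2 signals, and array medians over all probe sets ran from 2.65 to 2.72. KO LPS array 2 stood apart, with correlations of 0.936 to 0.958 with the other arrays, which correlated with each other at 0.967 to 0.991. Its Gapdh probe sets differed by 3.04 log2 units between the 3' end and the middle, where the other 11 arrays had 1.53 to 1.86. Many results that lean on it are given with and without it, and some only with it. The mean log2 signal over 9 DC markers was 7.16 to 7.37 on the WT arrays and 6.45 to 7.14 on the KO arrays, lowest on KO LPS array 2, and 2 of the 9 passed the limma test for KO against WT averaged over both stimulations, with a median log2 difference of −0.30. Neutrophil markers were higher in KO, with a mean over 9 of 10 listed genes of 3.46 to 4.72 in both WT groups and 6.06 to 8.37 in both KO groups, and 7 of the 9 passed the same test. NK cell markers ran from 3.08 to 3.88 in WT and from 5.03 to 5.33 in KO, with 6 of 7 called. The platelet marker mean was 3.53 to 4.35 in WT and 4.46 to 6.23 in KO, and 1 of 4 was called. The erythroid marker mean was 5.58 to 7.80 in WT and 7.15 to 8.48 in KO, with 0 of 3 called and a median averaged difference of 0.81. T cell markers were at 3.35 to 4.20 in WT and 3.47 to 3.78 in KO, with 0 of 4 called. B and plasma cell markers were at 6.06 to 6.36 in WT and 4.80 to 6.00 in KO, with 2 of 5 called, and macrophage markers at 5.40 to 6.39 in WT and 5.29 to 6.03 in KO, with 1 of 6 called. Members of these 2 lists went both ways, with median averaged differences of −0.06 and −0.15. Jchain was 7.26 to 8.44 in WT and 2.68 to 5.02 in KO, while Ms4a1 was 5.65 to 6.18 and 6.15 to 7.02. Mmp12 was 3.54 to 4.36 in WT and 1.71 to 2.66 in KO, while Cd5l was 6.30 to 7.88 and 7.66 to 8.34. The part of these cell types in the KO differences below was not tested, except where a measurement is given, and in such bulk samples fewer cells of a type and less RNA per cell cannot be told apart.

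Of the 55 Rab genes, 18 had no group mean above 3.14, the median log2 signal of all genes (32.7%, against 46.9% of all genes). They were Rab1a, Rab2b, Rab3a, Rab4a, Rab9b, Rab13, Rab17, Rab19, Rab26, Rab27b, Rab30, Rab33a, Rab36, Rab37, Rab38, Rab39, Rab39b and Rab40b. Their changes may be compressed or missed near the background. The other 37 were above that level in at least 1 group, and they included Rab8b, Rab10, Rab7, Rab2a, Rab21, Rab11a and Rab11b, each with a mean above 6 over the 12 arrays. A probe set's level cannot be set against that of another probe set, so no order among the genes is given.

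**Figure D1:**
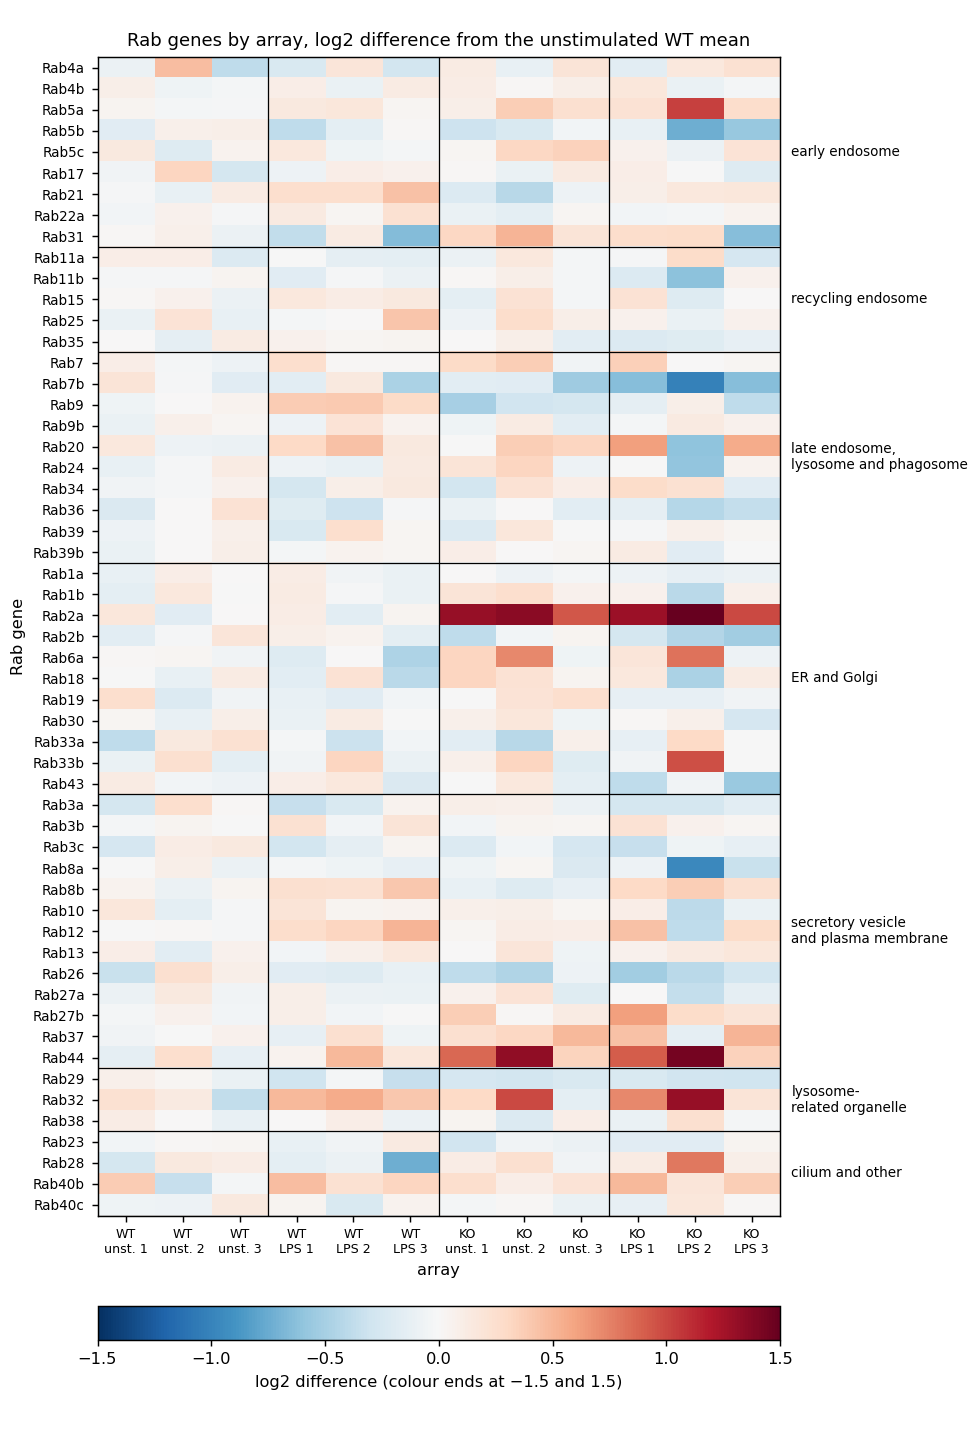
Log2 difference of each of the 55 Rab genes (rows, by the compartment each is known for) from its mean in unstimulated WT cells, on each of the 12 arrays (columns); red is higher and blue lower, and the colour ends at −1.5 and 1.5. Rab2a and Rab44 are red on all 6 KO arrays, Rab44 more faintly on the third array of each KO group, and KO LPS array 2 departs from its group in many rows.

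The Rab2a signal was higher and the Rab9 signal lower in KO than in WT samples, and no other Rab gene passed the test for genotype. The size of the Rab2a difference depended on the probe set, and the Rab9 call on single arrays, as given below. The samples also differed in markers of other cell types, whose part was not tested. In KO against WT averaged over both stimulations, limma called 2 of the 55 Rab genes at a Benjamini-Hochberg adjusted p under 0.05 (3.64%), where 2.62% of all 17097 genes were called. Unstimulated, limma called 1 of 55 (Rab2a), where 0.252% of all genes were called. After LPS it also called 1 (Rab2a), where 0.445% were called. These 3 comparisons share their arrays and are not separate evidence. The median log2 difference of the Rab genes was 0.00 for the averaged comparison, beside −0.02 over all genes. At an unadjusted p under 0.05 the averaged comparison held 13 Rab genes (23.6%, against 16.3% of all genes), of which 7 were higher in KO (12.7%, against 8.52%) and 6 lower (10.9%, against 7.74%).

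Separation of the arrays gave a like picture. Unstimulated, the 3 KO arrays did not overlap the 3 WT arrays for 10 Rab genes (18.2%, against 16.9% of all genes). Rab2a, Rab5a, Rab12, Rab31, Rab37 and Rab44 lay higher in KO, and Rab8b, Rab9, Rab23 and Rab29 lay lower. After LPS it was again 10 (18.2%, against 17.1%), with Rab2a, Rab5a, Rab27b and Rab28 higher and Rab2b, Rab7b, Rab9, Rab21, Rab26 and Rab35 lower. Under both stimulations there were 3 (5.45%, against 4.8%), namely Rab2a, Rab5a and Rab9. These shares were near those of all genes and are no result about the family.

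**Figure D2:**
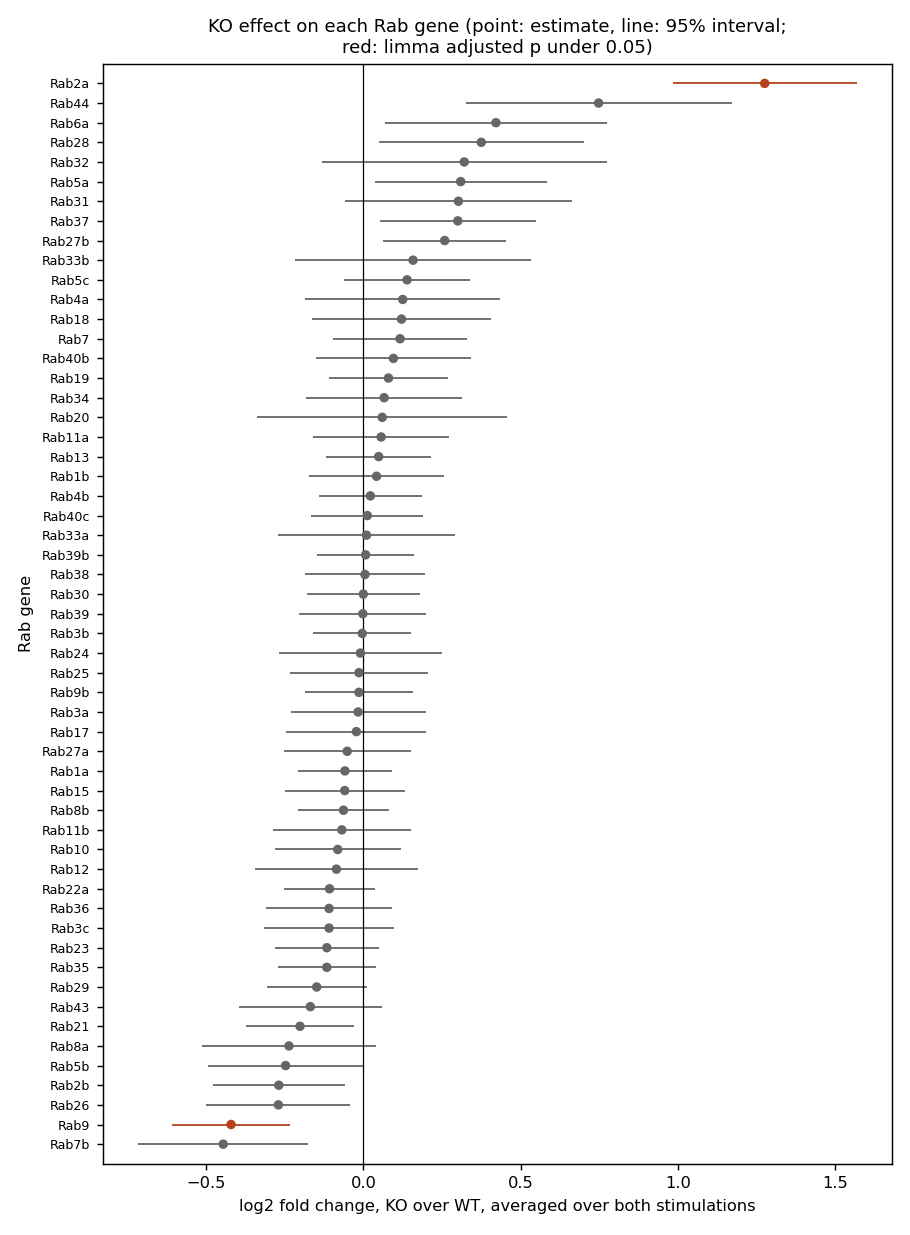
Log2 fold change of KO over WT, averaged over both stimulations, for each of the 55 Rab genes; the point is the limma estimate and the line its 95% interval. Rab2a, at 1.28, stands to the right of all other members, Rab44 at 0.75 comes next without passing the test, and Rab9 (−0.42) and Rab7b (−0.45) are at the lower end, of which only Rab9 passed.

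Among the Rabs of the endoplasmic reticulum (ER) and Golgi, Rab2a was higher in KO samples. Rab2a works in traffic between the ER and the Golgi and in fusion of late endosomes and autophagosomes with lysosomes. Its log2 signals were 6.58, 6.24 and 6.42 in unstimulated WT cells and 6.53, 6.26 and 6.46 in WT cells after LPS. In KO cells they were 7.71, 7.76 and 7.34 unstimulated and 7.70, 8.22 and 7.40 after LPS. All 6 KO arrays lay above all 6 WT arrays, a separation shown by 1 of the 55 Rab genes (1.82%) and, in this direction, by 1.81% of all genes, and within a genotype the LPS arrays lay among the unstimulated ones, except for the highest one, KO LPS array 2. The log2 difference was 1.19 ± 0.19 (SE, n = 3 per group) unstimulated, a 2.29-fold higher signal (limma adjusted p = 0.0248). After LPS it was 1.36 ± 0.19, or 2.57-fold (limma adjusted p = 0.0175), and without KO LPS array 2 it was 1.14 (limma adjusted p = 0.0112). Averaged over both stimulations it was 1.28 ± 0.13, or 2.42-fold, with a 95% interval from 0.98 to 1.57 (limma adjusted p = 0.000778). The neutrophil marker mean ran in the same order as Rab2a within each KO group, at 7.96, 8.37 and 6.11 unstimulated and 7.73, 7.80 and 6.06 after LPS. Within the WT groups the order differed, with marker means of 4.72, 4.42 and 3.46 unstimulated and 4.65, 4.66 and 3.48 after LPS. The part of neutrophil RNA in the Rab2a difference was not tested.

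The averaged call of Rab2a was kept when each of the 12 arrays was left out in turn, and the calls within a stimulation were not. Unstimulated, the call was lost without WT unstimulated array 1, 2 or 3, without WT LPS array 1 and without KO unstimulated array 1 or 2. The limma adjusted p was then 0.0593, 0.12, 0.14, 0.0502, 0.114 and 0.138, with the log2 difference between 1.11 and 1.28. After LPS the call was lost without WT LPS array 1, 2 or 3, with log2 differences of 1.28 to 1.42 and limma adjusted p of 0.0569, 0.063 and 0.0813. It was also lost in a fit on only the 6 LPS arrays (limma adjusted p = 0.161).

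The size of the Rab2a difference depended on the probe set, of which there were 6, all higher in KO. Those designed on an expressed sequence tag gave log2 differences, averaged over both stimulations, of 1.28 for 1449676_PM_at, the one used above, 1.16 for 1419945_PM_s_at and 0.99 for 1419946_PM_s_at. Those designed on the RefSeq transcript gave 0.81 for 1418622_PM_at, 0.38 for 1418621_PM_at and 0.20 for 1418623_PM_at. With p adjusted over all single-symbol probe sets, the first 4 passed (limma adjusted p = 0.000906, 0.000266, 0.000906 and 0.00285) and the other 2 did not (limma adjusted p = 0.137 and 0.429). The mean over all 6 gave 0.80, or 0.81 unstimulated and 0.79 after LPS (limma adjusted p = 0.000948, 0.0189 and 0.0222). The direction was thus shared by all 6 probe sets while the fold was not, and which transcripts each one reads was not analysed here.

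**Figure D3:**
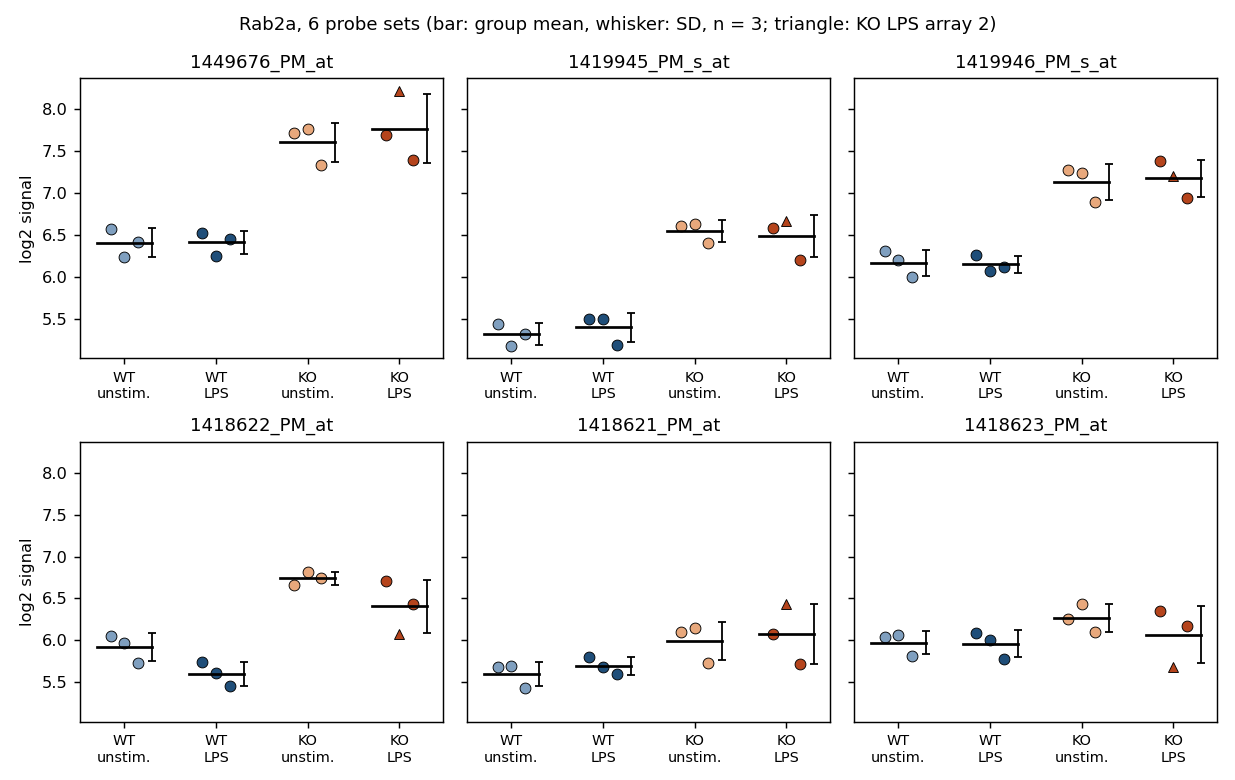
Log2 signal of the 6 Rab2a probe sets in each array by group, with group means (bars) and SDs (whiskers, n = 3); the triangle is KO LPS array 2. The averaged KO difference falls from 1.28 in the first panel to 0.20 in the last, and KO LPS array 2 is the highest point in the first panel and the lowest in the last.

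The other 10 ER and Golgi members did not pass the test, where 2.62% of all genes were called in the averaged comparison. Rab6a, which acts in retrograde traffic to and through the Golgi and in secretion, had log2 signals of 6.00, 6.00 and 5.92 in unstimulated WT, 5.79, 5.99 and 5.51 in WT after LPS, 6.30, 6.70 and 5.91 in unstimulated KO and 6.15, 6.79 and 5.89 in KO after LPS. The third KO array of each stimulation lay within the WT range, so the groups overlapped. Within each KO group Rab6a ran in the order of the neutrophil marker mean given above. In WT it did so after LPS but not unstimulated, and the part of neutrophil RNA was not tested. The averaged difference of Rab6a was 0.42 ± 0.16 (limma adjusted p = 0.216), the other 2 Rab6a probe sets gave 0.56 and 0.80, and without KO LPS array 2 it was 0.29. Rab2b, the paralog of Rab2a, differed the other way, by −0.27 ± 0.10 averaged (limma adjusted p = 0.185), and it was under the median gene in every group. Rab43, a Golgi Rab with a role in cross-presentation by DCs, had log2 signals of 5.04, 5.10 and 4.72 in WT and 4.55, 4.89 and 4.38 in KO after LPS. These overlapped, with a difference of −0.34 ± 0.15 (limma adjusted p = 0.335). Rab1a, Rab1b, Rab18, Rab19, Rab30, Rab33a and Rab33b had averaged differences from −0.06 to 0.16. The median of the 11 members was 0.04, beside −0.02 over all genes.

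Among the Rabs of late endosomes, lysosomes and phagosomes, Rab9 was lower in KO samples. Rab9 returns mannose 6-phosphate receptors from late endosomes to the trans-Golgi network. Its log2 signals were 5.57, 5.64 and 5.68 in unstimulated WT and 5.14, 5.35 and 5.36 in unstimulated KO. After LPS they were 6.01, 6.02 and 5.92 in WT and 5.50, 5.72 and 5.25 in KO. The KO arrays lay below the WT arrays within each stimulation, while KO LPS array 2 lay above all unstimulated WT arrays. Averaged over both stimulations the difference was −0.42 ± 0.09, a 1.34-fold lower signal (limma adjusted p = 0.0242, and 0.00498 without KO LPS array 2). Within a stimulation it did not pass, at −0.35 ± 0.12 unstimulated (limma adjusted p = 0.395) and −0.49 ± 0.12 after LPS (limma adjusted p = 0.116), and without KO LPS array 2 the latter was −0.61 (limma adjusted p = 0.0398). The averaged call was lost in 7 of the 12 fits that left out 1 array. These were without WT unstimulated array 2 or 3, WT LPS array 1, 2 or 3, and KO unstimulated array 1 or 2, with limma adjusted p of 0.0541 to 0.0738 and differences of −0.38 to −0.44. Rab9 had 1 probe set, so no other one bears on it.

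Rab7b, which moves cargo from late endosomes to the trans-Golgi network and is known to promote degradation of TLR4, did not pass. Its log2 signals were 5.75, 5.53 and 5.38 in unstimulated WT, 5.40, 5.70 and 5.08 in WT after LPS, 5.40, 5.39 and 5.02 in unstimulated KO and 4.91, 4.54 and 4.91 in KO after LPS. After LPS the KO arrays lay below the WT arrays, and unstimulated they overlapped at 5.38 and 5.40. The averaged difference was −0.45 ± 0.12 (limma adjusted p = 0.0813), and the second probe set gave −0.28. It was called after quantile normalization (limma adjusted p = 0.045) and, as given in the closing section, with array number as a fixed block. Without KO LPS array 2 it was not called. Rab7, the central Rab of late endosomes and lysosomes, had log2 signals of 7.35, 7.22 and 7.18 in unstimulated WT and 7.54, 7.62 and 7.20 in unstimulated KO, which overlapped. Its difference was 0.20 ± 0.14 (limma adjusted p = 0.756), and after LPS it was 0.03.

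The phagosome Rabs showed no call for genotype, where 2.62% of all genes were called in the averaged comparison. Rab20, which takes part in phagosome maturation, had log2 signals of 5.65, 5.42 and 5.40 in unstimulated WT, 5.79, 5.93 and 5.64 in WT after LPS, 5.48, 5.86 and 5.81 in unstimulated KO and 6.11, 4.88 and 6.05 in KO after LPS. The low value is that of KO LPS array 2, and the averaged KO difference was 0.06 ± 0.18 (limma adjusted p = 0.909). Rab34, which also acts on phagosomes, ran from 3.53 to 4.09 over all arrays, and its difference after LPS was 0.12 ± 0.16 (limma adjusted p = 0.786). Rab39 lay under the median gene throughout, from 1.38 to 1.86. Rab24, an autophagy Rab, Rab36, Rab39b and Rab9b had averaged differences from −0.11 to 0.01. Over the 10 members the median was −0.01, with 4 above 0.

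Of the 9 early endosome Rabs none was called for KO against WT, where 2.62% of all genes were called in the averaged comparison. Rab5a, which drives the fusion of early endosomes, came closest to separating the groups. It was 5.81, 5.74 and 5.76 in unstimulated WT and 5.86, 6.14 and 6.01 in unstimulated KO. After LPS it was 5.91, 5.94 and 5.80 in WT and 5.98, 6.79 and 6.03 in KO. The KO arrays lay above the WT arrays within each stimulation by small steps, apart from KO LPS array 2, which lay far above. The averaged difference was 0.31 ± 0.13 (limma adjusted p = 0.243) and 0.18 without that array (limma adjusted p = 0.245). Its paralogs gave −0.25 for Rab5b and 0.14 for Rab5c, neither of which passed.

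Rab31, of early endosomes and the trans-Golgi network, had log2 signals of 4.10, 4.16 and 4.0 in unstimulated WT and 4.40, 4.60 and 4.28 in unstimulated KO, which did not overlap. After LPS it was 3.71, 4.21 and 3.44 in WT and 4.35, 4.36 and 3.45 in KO, which did. The averaged difference was 0.30 ± 0.17 (limma adjusted p = 0.401). Rab21, which regulates integrin endocytosis, was −0.20 ± 0.08 averaged (limma adjusted p = 0.225). Rab4a and Rab4b, of rapid recycling from early endosomes, Rab17 and Rab22a had differences from −0.11 to 0.13.

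The 5 recycling endosome Rabs had averaged differences from −0.12 to 0.06, and none was called (against 2.62% of all genes). Rab11a, which returns cargo to the surface and carries TLR4 to phagosomes, had log2 signals of 6.50, 6.50 and 6.19 in unstimulated WT, 6.39, 6.26 and 6.25 in WT after LPS, 6.31, 6.55 and 6.36 in unstimulated KO and 6.38, 6.67 and 6.15 in KO after LPS. The groups overlapped throughout. The averaged difference was 0.06 ± 0.10 (limma adjusted p = 0.826). A second, dimmer probe set of Rab11a, 1434549_PM_at, was 0.65 ± 0.14 higher in KO when every probe set was tested on its own (limma adjusted p = 0.0364), so the 2 probe sets of this gene disagreed. That probe set was at 5.10 on KO LPS array 2 and from 3.97 to 4.40 on the other KO arrays, against 3.51 to 3.82 in WT. Rab11b, Rab15, Rab25 and Rab35 made up the rest of the group.

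Of the 13 Rabs of secretory vesicles and the plasma membrane none was called for genotype, where 2.62% of all genes were called in the averaged comparison. The widest gap was that of Rab44, a large Rab with calcium-binding EF hands that has been described in immune cells, among them mast cells. Its log2 signals were 2.91, 3.31 and 2.93 in unstimulated WT, 3.10, 3.54 and 3.22 in WT after LPS, 3.91, 4.37 and 3.39 in unstimulated KO and 3.95, 4.48 and 3.39 in KO after LPS. All unstimulated KO arrays lay above the unstimulated WT arrays, while after LPS the third KO array lay below the second WT array. The averaged difference was 0.75 ± 0.19, or 1.68-fold (limma adjusted p = 0.0644). It passed when dim genes were left out of the test (limma adjusted p = 0.0487), with array weights (0.0402), without KO unstimulated array 3 (0.0316) and without KO LPS array 3 (0.0167). Without KO LPS array 2 it was not called. The third KO arrays were also the lowest KO arrays for the neutrophil marker mean given above. In both WT groups the third array was the lowest for that mean but not for Rab44. The part of neutrophil RNA in the Rab44 difference was not tested.

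Other secretory members stayed short of the test as well. Rab37, a Rab of secretory granules, was 2.40, 2.46 and 2.52 in unstimulated WT and 2.70, 2.77 and 2.95 in unstimulated KO, which did not overlap. Averaged over both stimulations it differed by 0.30 ± 0.11 (limma adjusted p = 0.209), and it was called without KO LPS array 2, at 0.40 (limma adjusted p = 0.0229), although every group mean was under the median gene. Rab27b, which acts in exosome release and in platelet granules, ran from 2.03 to 2.16 on the WT arrays. In KO it was 2.44, 2.09 and 2.20 unstimulated and 2.69, 2.35 and 2.27 after LPS, and the averaged difference was 0.26 ± 0.09 (limma adjusted p = 0.172). Its probe sets disagreed in sign, as 1417215_PM_at gave 0.11 and 1439610_PM_at −0.12. The highest Rab27b array in each KO group was the first, which was also the highest for the platelet marker mean (5.88 and 6.23). In WT that mean was highest on the second array of each group, as Rab27b was unstimulated but not after LPS. The part of platelet RNA was not tested.

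Rab27a, the partner of Rab27b in granule docking, with a role in antigen handling by DC phagosomes, was 3.53, 3.77 and 3.56 in unstimulated WT and 3.68, 3.83 and 3.43 in unstimulated KO, and it was 3.70, 3.53 and 3.52 in WT and 3.62, 3.26 and 3.48 in KO after LPS. These groups overlapped, and the averaged difference was −0.05. Rab10, which supports delivery of TLR4 to the plasma membrane, was 7.77, 7.62 and 7.63 in WT and 7.68, 7.18 and 7.48 in KO after LPS. The difference was −0.23 ± 0.13 (limma adjusted p = 0.464), and without KO LPS array 2, the lowest array, it was −0.095 (limma adjusted p = 0.879). The remaining members Rab3a, Rab3b, Rab3c, Rab8a, Rab8b, Rab12, Rab13 and Rab26 had averaged differences from −0.27 to 0.05.

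The 3 Rabs of lysosome-related organelles and the 4 of cilia or other functions held no call (against 2.62% of all genes in the averaged comparison). Rab32, which works with its relative Rab38 in the biogenesis of such organelles, was 4.82, 4.74 and 4.23 in unstimulated WT and 4.90, 5.59 and 4.45 in unstimulated KO, which overlapped. Within each of the 4 groups Rab32 ran in the order of the neutrophil marker mean, and the part of neutrophil RNA was not tested. The averaged KO difference of Rab32 was 0.32 ± 0.21 (limma adjusted p = 0.485). Rab29, a Rab tied to the kinase LRRK2, was 4.63, 4.59 and 4.46 in unstimulated WT and 4.31, 4.28 and 4.34 in unstimulated KO, which did not overlap. Its unstimulated difference was −0.25 ± 0.10 (limma adjusted p = 0.498), and its averaged one −0.15. Rab28, a ciliary Rab of photoreceptors, was 3.49, 3.54 and 2.89 in WT and 3.75, 4.42 and 3.72 in KO after LPS, a difference of 0.65 ± 0.21 (limma adjusted p = 0.213) that was 0.43 without KO LPS array 2. Rab23, a ciliary regulator of Hedgehog signalling, and Rab40b and Rab40c, which carry a SOCS box, had averaged differences from −0.12 to 0.10.

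LPS raised no Rab gene past the test within either genotype. In WT cells limma called 0 of 55, where 0.117% of all genes were called (20 genes), and 3 Rab genes had an unadjusted p under 0.05, all higher after LPS (5.45%, against 5.12% of all genes in either direction and 3.17% higher). In KO cells limma called 0 of 55, where 0.392% were called, and 4 Rab genes had an unadjusted p under 0.05 (7.27%, against 9.47%). The median log2 change of the Rab genes was 0.01 in WT and −0.02 in KO, beside 0.00 and −0.02 over all genes. In WT the LPS arrays did not overlap the unstimulated arrays for 6 Rab genes, Rab8b, Rab9, Rab12, Rab15, Rab21 and Rab32, all higher after LPS (10.9%, against 11.9% of all genes in either direction and 6.81% higher). In KO there were also 6 (10.9%, against 13.5%), with Rab8b and Rab21 higher and Rab1a, Rab3a, Rab7b and Rab19 lower. Of the lower ones, Rab1a, Rab3a and Rab19 were under the median gene in every group.

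Rab8b and Rab21 were the only members that lay higher after LPS without overlap in both genotypes (3.64%, against 1.43% of all genes). Rab8b belongs to the Rabs that carry vesicles from the Golgi and recycling endosomes to the surface. Its log2 signals were 8.38, 8.24 and 8.37 in unstimulated WT and 8.57, 8.56 and 8.73 in WT after LPS. In KO they were 8.22, 8.14 and 8.21 unstimulated and 8.63, 8.70 and 8.58 after LPS. All 6 LPS arrays lay above all 6 unstimulated arrays, which held for 1 of 55 Rab genes (1.82%) and 0.819% of all genes. The LPS change was 0.29 ± 0.09 in WT (limma adjusted p = 0.701) and 0.44 ± 0.09 in KO (limma adjusted p = 0.0854), and the latter passed with array number within genotype as a random block (limma adjusted p = 0.0367), but not with that block without KO LPS array 2 (limma adjusted p = 0.0772) or with a fixed block (limma adjusted p = 0.103). Averaged over both genotypes, a comparison added because of these values and so no independent support, it was 0.37 ± 0.07, or 1.29-fold (limma adjusted p = 0.0213), where 0.801% of all genes were called. That call was lost in 6 of the 12 fits with 1 array left out, namely without WT unstimulated array 2, WT LPS array 3, KO unstimulated array 1, 2 or 3 and KO LPS array 1 (limma adjusted p = 0.0502 to 0.0716). The second, dimmer Rab8b probe set changed by −0.05, so the 2 probe sets of this gene disagreed, and the mean of both gave 0.16 (limma adjusted p = 0.57).

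Rab21 had log2 signals of 6.75, 6.66 and 6.89 in unstimulated WT and 7.02, 7.02 and 7.20 in WT after LPS. In KO they were 6.56, 6.35 and 6.69 unstimulated and 6.86, 6.93 and 6.94 after LPS. Each LPS group lay above its own unstimulated group, while the KO LPS arrays lay near the highest unstimulated WT array. The change averaged over genotypes was 0.34 ± 0.08 (limma adjusted p = 0.0878), and its second probe set gave 0.39. With array number within genotype as a random block it passed (limma adjusted p = 0.0373), and with a fixed block it did not (limma adjusted p = 0.0688). Rab21 differed here from Rab8b in that both of its probe sets gave a change of like size.

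**Figure D4:**
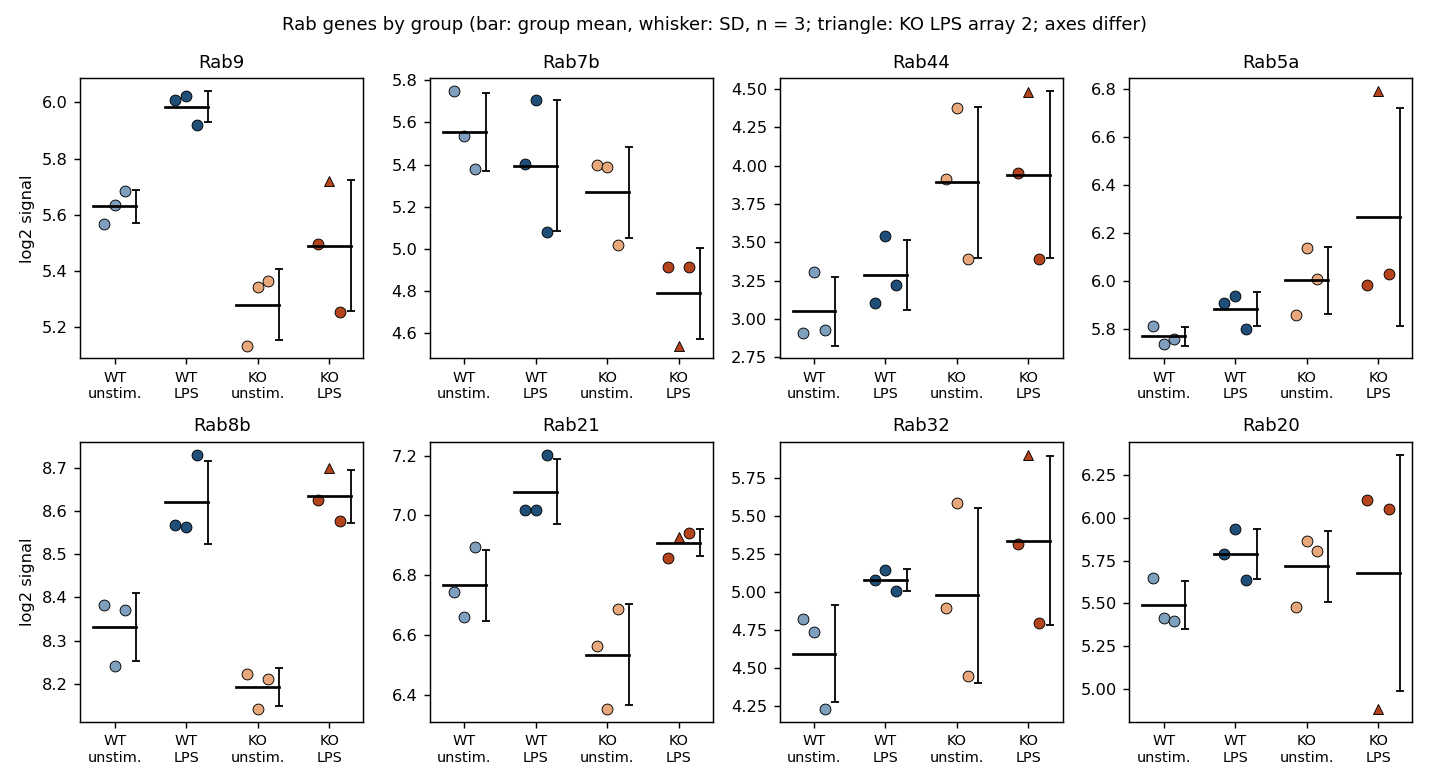
Log2 signal of 8 Rab genes in each array by group, with group means (bars) and SDs (whiskers, n = 3); the triangle is KO LPS array 2, and the axes differ. Group means of Rab9 and Rab7b are lower and those of Rab44 higher in KO, and of these 3 only Rab9 passed the averaged test for genotype. On the probe sets used, Rab8b and Rab21 lie higher after LPS in both genotypes.

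Same-numbered arrays of a genotype deviated together from their group means, so the LPS change can also be read pair by pair. In all 6 pairs 7 Rab genes were higher after LPS (12.7%, against 4.19% of all genes), namely Rab5a, Rab8b, Rab9b, Rab21, Rab32, Rab40b and Rab44. In all 6 pairs 1 was lower, Rab8a (1.82%, against 4.23%). For Rab5a, Rab9b and Rab44 some of these steps were near 0, such as 0.0132 for Rab9b in the second KO pair and 0.0021 for Rab44 and 0.0181 for Rab5a in the third. Rab9b and Rab40b were under the median gene, and the second Rab40b probe set changed by −0.08 averaged over genotypes. Steps of Rab8a included −0.0121 in the first KO pair and −0.9992 in the pair with KO LPS array 2. Rab32 was higher after LPS by 0.26, 0.41 and 0.77 log2 units in the 3 WT pairs and by 0.42, 0.32 and 0.34 in the KO pairs. Its averaged change was 0.42 ± 0.21 (limma adjusted p = 0.589 without pairing), and it was called with the pairs as a fixed block (limma adjusted p = 0.0431) but not as a random block (limma adjusted p = 0.375).

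Members named for their part in TLR4 traffic or phagosomes did not pass for LPS. Rab20 changed by 0.30 ± 0.26 in WT (limma adjusted p = 1), and in KO by −0.04 with KO LPS array 2, which lay more than 1 log2 unit under its group, and by 0.36 without it (limma adjusted p = 0.502). Rab7b was −0.16 in WT and −0.48 ± 0.18 in KO (limma adjusted p = 0.39). Rab9 was 0.35 ± 0.12 higher in WT, where the groups did not overlap (limma adjusted p = 0.773), and 0.21 higher in KO, where they did. Rab27a was −0.19 ± 0.13 in KO (limma adjusted p = 0.703), Rab10 was 0.10 in WT and −0.20 in KO, and Rab11a was −0.10 and −0.01. Rab39 was 0.05 ± 0.13 in KO (limma adjusted p = 0.952), with signals near the floor. Rab12, which acts in transport of receptors to lysosomes, was 4.75, 4.78 and 4.75 in unstimulated WT and 5.02, 5.08 and 5.27 after LPS, and it was 5.20, 4.38 and 5.04 in KO after LPS against 4.79, 4.87 and 4.86 before. Its averaged change was 0.20, or 0.32 without KO LPS array 2 (limma adjusted p = 0.0567, and 0.022 with the random block as well).

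The LPS effect was not shown to differ between genotypes for any Rab gene. limma called 0 of 55 for the difference of the LPS effects, where 0% of all genes were called, and 0 Rab genes had an unadjusted p under 0.05 (against 3.74% of all genes). For Rab2a the difference of LPS effects, KO minus WT, was 0.17 ± 0.27, for Rab9 it was −0.15 ± 0.17, for Rab8b 0.15 ± 0.13 and for Rab7b −0.32 ± 0.25, and the smallest limma adjusted p of any member was 0.969. With 3 arrays per group these errors leave room for differences of a size like that of the Rab9 call.

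Some of the proteins that control Rabs were called. Of 126 listed exchange factors, GTPase-activating proteins (GAPs), effectors and prenylation factors, 112 were measured, and in KO against WT averaged over both stimulations limma called 1 higher and 3 lower (against 1.74% and 0.877% of all genes). The median was −0.06, beside −0.02 over all genes. Ric1, a subunit of the exchange factor for Rab6, ran from 3.43 to 3.84 in WT and from 3.92 to 4.32 in KO without overlap, a difference of 0.60 ± 0.10 (limma adjusted p = 0.00777), and its call was kept in all 12 fits that left out 1 array. The 3 lower genes were TBC-domain GAPs, out of 32 GAPs measured. At an unadjusted limma p under 0.05, 12 of the 32 GAPs were lower in KO and 5 higher (against 7.74% and 8.52% of all genes). The median of the GAPs was −0.11, and no set test was run. Tbc1d9 differed by −0.54 ± 0.12 (limma adjusted p = 0.0326), and its lowest array, at 4.66, was KO LPS array 2, without which it differed by −0.43 (limma adjusted p = 0.0124). Tbc1d12 differed by −0.42 ± 0.09 (limma adjusted p = 0.0306), but the mean of its probe sets gave 0.03. Tbc1d30, with signals of 2.15 to 2.40 in WT and 1.73 to 2.06 in KO, differed by −0.35 ± 0.07 (limma adjusted p = 0.0215), and by −0.19 as the mean of its probe sets (limma adjusted p = 0.178). All 3 calls were lost without WT LPS array 1 or 3 and without KO unstimulated array 1 or 2. That of Tbc1d9 was also lost without WT unstimulated array 1, 2 or 3 and WT LPS array 2, that of Tbc1d12 without WT unstimulated array 2, WT LPS array 2 and KO LPS array 1, and that of Tbc1d30 without WT unstimulated array 3. The limma adjusted p in these fits ran from 0.0502 to 0.0897. Of the 41 effectors and the 7 prenylation and GDI genes none was called, where 2.62% of all genes were. Within a stimulation none of the 112 was called for genotype (against 0.252% of all genes unstimulated and 0.445% after LPS).

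For LPS, 1 of the 112 measured regulators was called, in KO (against 0.392% of all genes) and averaged over both genotypes (against 0.801%). It was Tbc1d1, a GAP of Rabs that move GLUT4 vesicles. Its log2 signals were 3.69, 4.01 and 4.61 in unstimulated WT and 5.28, 5.46 and 5.77 in WT after LPS. In KO they were 3.04, 3.50 and 3.98 unstimulated and 4.81, 4.99 and 4.86 after LPS, so the LPS arrays lay above the unstimulated arrays in both genotypes. The change was 1.38 ± 0.25 in KO (limma adjusted p = 0.0352) and 1.39 ± 0.18 averaged over both genotypes (limma adjusted p = 0.00179). The averaged call was kept in all 12 fits that left out 1 array. The call in KO was lost without WT unstimulated array 2, WT LPS array 1 or 2, KO unstimulated array 1 or 2 and KO LPS array 1, 2 or 3 (limma adjusted p = 0.0543 to 0.157). In WT alone none of the 112 passed, where 0.117% of all genes did.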

How the data were processed

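RNA was amplified from oligo(dT) and random primers for 12 Affymetrix arrays, per the labels' protocols. RMA is the method named in the submitters' processing notes, without a version, and the values deposited by the authors fit log2 signals. Of 45141 probe sets, 28898 carried 1 gene symbol in a GEO annotation, which can be old, and 551 with several symbols, among them 1 that names Rab20, were left out. The probe set with the highest mean was kept for each of 17097 genes. The 55 Rab genes had 99 probe sets (26 genes had more than 1) and all matched RefSeq by Entrez number. All 12 columns were used.

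One limma 3.58.1 fit (R 4.3.3, lmFit and eBayes, 4 group means, 8 residual degrees of freedom, prior 4.31) gave 6 comparisons with Benjamini-Hochberg adjustment over all genes at 0.05, and LPS averaged over genotypes was added after seeing the data. Errors after ± are SEs. The fits were tested on simulated data. The labels name a mouse for each sample, and p-values measure only the spread between these samples. Array numbers come from the titles. With group means taken out, arrays of 1 number and genotype correlated at 0.230 to 0.440, those of different numbers at −0.336 to −0.032, and same numbers across genotypes, of the same stimulation, at −0.0085 to 0.221. Numbers were therefore taken as pairs within a genotype only. The main fit did not include these pairs, so its SEs for the averaged genotype comparison may be too small.

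The members and lists were chosen with earlier results of these data known. Values in full are given for Rab genes called in at least 1 comparison and for 14 Rab genes with roles in phagosomes, antigen presentation, secretion or TLR4 traffic, of which Rab14 was not analysed here. Rab2b, Rab6a, Rab12, Rab21, Rab27b, Rab28, Rab29, Rab37 and Rab44 were described after their values were seen. Alternatives were the mean of a gene's probe sets, each probe set on its own, dim genes left out, median subtraction, quantile normalization, eBayes with trend and robust, array weights, fits on 2 groups, replicate blocks (statmod 1.5.0) and each array left out.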

Additional observations from a re-analysis of the deposited data

How the results depend on the processing

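Counts of Rab genes called by limma stayed at 0 for LPS in WT and for the difference of LPS effects under each alternative run. For KO against WT averaged over both stimulations the count of 2 became 4 with array weights (Rab2a, Rab9, Rab37 and Rab44), and it ran from 1 to 3 with 1 array left out. Unstimulated, the count of 1 ran from 0 to 1 with 1 array left out. After LPS it became 2 with array weights, 0 in a fit on the 2 groups compared and 2 with a random replicate block without KO LPS array 2, and it ran from 0 to 2 with 1 array left out. For LPS averaged over genotypes the count of 1 became 0 with the mean of probe sets, 0 with quantile normalization and 0 with trend and robust, and ran from 0 to 1 with 1 array left out. The cause was not tested. The background moved too, as the 43 genes called unstimulated among all genes became 5 to 166 with 1 array left out.

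With array number within genotype as a random replicate block (consensus correlation 0.174) LPS in KO had 1 call, Rab8b, and LPS averaged over genotypes had 2, Rab8b and Rab21, or 3 without KO LPS array 2, with Rab12. With a fixed replicate block LPS averaged over genotypes had 2, Rab8b and Rab32, and LPS in KO had 0. For KO against WT averaged over both stimulations the random block kept Rab2a and Rab9, while calls among all genes went from 448 to 284. Across genotypes array numbers are not shown to pair samples, and blocking by them gave 2 calls unstimulated and 5 averaged (Rab2a, Rab6a, Rab7b, Rab9 and Rab44). With all arrays kept, the blocks changed no other count of Rab genes. Counts among all genes moved more. With the random block they went from 20 to 48 for LPS in WT and from 67 to 135 for LPS in KO. With the fixed block, KO against WT went from 43 to 170 unstimulated and from 76 to 280 after LPS.

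The averaged KO difference of Tbc1d12 was 0.026 as the mean of its probe sets, and ran from −0.4811 to −0.3477 with 1 array left out. Signs also turned for 4 small differences. That of Rab20 for LPS in KO was 0.3099 with array weights and 0.3797 with the random replicate block without KO LPS array 2, and it ran from −0.2492 to 0.3618 with 1 array left out. That of Rab11a after LPS was -8e-04 with array weights, −0.0364 without KO LPS array 2 and −0.0189 with the random block too, and it ran from −0.0364 to 0.2275 with 1 array left out. That of Rab34 after LPS was −0.0083 without WT LPS array 1 (−0.0083 to 0.2582 with 1 array left out), and that of Rab39 for LPS in KO −0.0485 without KO unstimulated array 1 (−0.0485 to 0.1383). Signals near background limit 18 of the 55 genes.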
